A study of Mus musculus with 6 samples.

Results

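The cluster of miR-182, miR-96 and miR-183 comprises 3 microRNA (miRNA) hairpins on mouse chromosome 6 and their 6 mature miRNAs, mmu-miR-182-5p, mmu-miR-182-3p, mmu-miR-96-5p, mmu-miR-96-3p, mmu-miR-183-5p and mmu-miR-183-3p. The members were picked by name, with earlier results of these data known. All 6 were found among the 1978 mature miRNAs counted in each miRNA library. The counts came from RNA held by Spy3-tagged AGO2, an Argonaute protein that carries miRNAs to their targets, in mouse embryonic stem cells that form a line with the genotype Spy3-Ago2. The cells were kept in serum-containing medium with LIF, a cytokine that maintains the undifferentiated state, on gelatin. Every library of the series carries this genotype, and no untagged control or second condition was analysed here. The 6 libraries form 3 groups of 2, named miRNA, target and input, and the values below are from the 2 miRNA libraries.

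Depth was 22908172 counts for replicate 2 and 12562727 for replicate 1, which differ 1.82-fold. Whether these were separate cultures is not stated by the labels, and their spread may therefore be technical only. The label was checked against stem cell miRNAs, which held 30.0% of replicate 2 and 29.4% of replicate 1 for miR-290a-5p, miR-291a-3p, miR-294-3p and miR-295-3p together. A list of 18 miRNAs of other cell types (let-7, neural, liver, muscle, blood and mesenchymal) held 2.68% of replicate 2 and 1.89% of replicate 1. All 18 had counts in both libraries, at shares per library from 7.96e-06% to 1.57%.

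A miRNA hairpin is cut out of a longer primary transcript and then diced to a short duplex. Argonaute keeps one strand, the guide, and the other strand, the passenger, is largely lost. The miR-182/miR-96/miR-183 hairpins are transcribed together and are known best from sensory organs such as the retina, the inner ear and taste and smell epithelia, where mutations in the miR-96 seed cause hearing loss in mice and humans. Their 5p arms have similar but not identical seeds, the bases from 2 to 8 that select targets.

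The mature sequences are shown because these seeds set which targets each arm can select. They are RefSeq sequences on GRCm38.p6, the assembly also called mm10, with the seed in capitals.
mmu-miR-182-5p: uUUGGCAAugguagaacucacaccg
mmu-miR-96-5p: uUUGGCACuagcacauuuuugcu
mmu-miR-183-5p: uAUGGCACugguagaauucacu
mmu-miR-182-3p: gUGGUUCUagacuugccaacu
mmu-miR-96-3p: cAAUCAUGuguagugccaauau
mmu-miR-183-3p: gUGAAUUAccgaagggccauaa

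With positions counted from 1 at the 5′ end, the seed of miR-182-5p differed from that of miR-96-5p by A8C. The seed of miR-96-5p differed from that of miR-183-5p by U2A, and miR-182-5p and miR-183-5p differed by both changes. Over their whole length the closest pair was miR-182-5p and miR-183-5p, with the same base at 18 of 22 positions aligned from the 5′ end, against 13 of 22 for miR-96-5p and miR-183-5p and 12 of 23 for miR-182-5p and miR-96-5p. The pair with the more similar bodies therefore had the less similar seeds. No member shared its whole mature sequence with another RefSeq name. Among all named RefSeq miRNAs, miR-96-5p shared its seed with miR-1271-5p, from chromosome 13, which is shown to set the seed match against the different body.
mmu-miR-1271-5p: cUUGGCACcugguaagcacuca
miR-1271-5p had 0 counts in both libraries, which allows a share of up to 1.31e-05% in replicate 2 and 2.39e-05% in replicate 1. The seed of miR-96-3p was shared with miR-3475-5p, which also had 0 counts in both libraries. The seeds of miR-182-5p and miR-183-5p matched no other RefSeq name, so among the names with a sequence each 5p seed was counted through its own arm alone.

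The hairpins lie on the minus strand of chromosome 6. They are printed with both mature arms in capitals, to show how the strands counted below sit in each precursor.
Mir183: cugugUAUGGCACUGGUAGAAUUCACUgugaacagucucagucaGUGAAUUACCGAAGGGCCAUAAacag
Mir96: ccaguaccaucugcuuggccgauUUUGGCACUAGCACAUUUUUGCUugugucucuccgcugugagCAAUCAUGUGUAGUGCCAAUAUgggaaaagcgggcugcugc
Mir182: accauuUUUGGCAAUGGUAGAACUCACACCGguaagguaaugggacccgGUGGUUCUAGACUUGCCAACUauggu

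In the direction of transcription Mir183 comes first, at chr6:30169668-30169737, and Mir96 follows after 116 bases, at chr6:30169446-30169551. Mir182 lies 3453 bases further on, at chr6:30165918-30165992. All 3 lie within the span of the long noncoding RNA gene Mirc35hg (chr6:30158640-30174125), between the protein-coding genes Nrf1 and Ube2h. The arms are separated by 17 bases in Mir183, 19 in Mir96 and 18 in Mir182. No target peak of the series had its midpoint within the Mirc35hg span.

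The 6 members together held 9.54% of the counts of replicate 2 (the 95% Wilson interval runs from 9.53 to 9.55) and 7.15% of replicate 1 (from 7.13 to 7.16), a mean of 8.35% ± 1.69 (SD, n = 2). These intervals cover counting error alone, and they were far narrower than the spread between the replicates. miR-182-5p made up 73.8% of the cluster's counts in replicate 2 and 79.3% in replicate 1. With miR-182-5p taken out of both the cluster and the total, an alternative added after seeing the data, the other 5 members held 2.13%.

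miR-182-5p, the main guide strand of the cluster, had 1613811 counts (7.04%) in replicate 2 and 712059 counts (5.67%) in replicate 1. It ranked 2nd among all miRNAs in replicate 2 and 3rd in replicate 1, with a mean of 6.36% ± 0.97 (SD, n = 2). Its neighbour above in mean share, miR-92a-3p from the miR-17-92 cluster, held 7.03% in replicate 2 and 7.45% in replicate 1, so their order changed between the libraries. Its neighbour below, miR-19b-3p, held 4.64% in replicate 2 and 4.84% in replicate 1, less than miR-182-5p in both.

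miR-183-5p had 319455 counts (1.39%) in replicate 2 and 86910 counts (0.692%) in replicate 1, for a mean of 1.04% ± 0.50 (SD, n = 2). miR-96-5p, the arm whose seed mutations cause deafness, had 242019 counts (1.06%) in replicate 2 and 92146 counts (0.733%) in replicate 1, with a mean of 0.895% ± 0.23. Which of the pair was more abundant depended on the library. miR-183-5p had 1.32 times the counts of miR-96-5p in replicate 2 and 0.943 times in replicate 1, so their means are not separated by the replicate spread. miR-183-5p ranked 12th in replicate 2 and 24th in replicate 1, and miR-96-5p 15th and 20th. In mean share miR-183-5p stood between miR-124-3p, with 1.23%, and miR-20a-5p, with 1.00%. miR-96-5p stood between miR-17-5p, with 0.907%, and miR-26a-5p, with 0.848%. Of these 4 neighbours, miR-124-3p kept its order in both libraries, above miR-183-5p, and the other 3 did not.

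The lead of miR-182-5p over the other 5p arms exceeded the spread between the libraries. It had 5.05 times the counts of miR-183-5p in replicate 2 and 8.19 times in replicate 1, and 6.67 times those of miR-96-5p in replicate 2 and 7.73 times in replicate 1. Reads were not corrected for ligation efficiency, which can differ between sequences, so these are ratios of counts and not of molecules.

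The 3p arms were rare. miR-183-3p had 10454 counts (0.0456%) in replicate 2 and 6888 counts (0.0548%) in replicate 1, rank 140 and 130. miR-182-3p had 97 counts in replicate 2 and 46 in replicate 1, which are 0.000423% and 0.000366% of the counts. miR-96-3p had 42 counts (0.000183%) in replicate 2 and 26 (0.000207%) in replicate 1. The passenger of miR-183 was therefore the one 3p arm of the cluster with over 100 counts in each library, and the order miR-183-3p, miR-182-3p, miR-96-3p was the same in both.

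**Figure D1:**
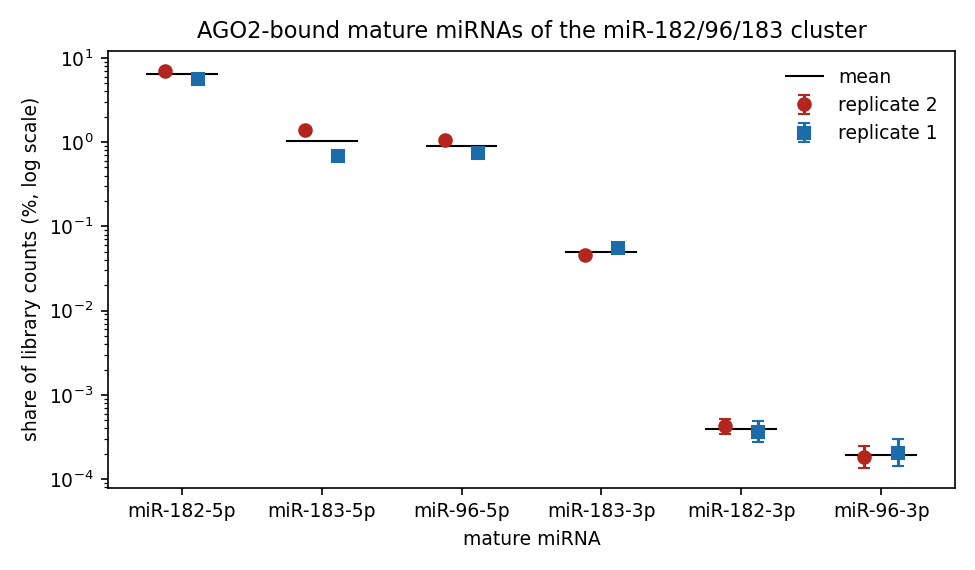
Share of library counts (percent, log scale) of the 6 mature miRNAs, with replicate 2 as circles, replicate 1 as squares, 95% Wilson intervals as bars (counting error, mostly smaller than the symbols) and the mean as a line. The 5p arms stand well above the 3p arms in both libraries; miR-183-5p and miR-96-5p exchange their order between the replicates.

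Arm use was almost entirely on the 5p side for miR-182 and miR-96 and less so for miR-183. The 5p arm of miR-182 held 99.994% of the hairpin's counts in replicate 2 and 99.9935% in replicate 1. The 5p arm of miR-96 held 99.9826% in replicate 2 (interval from 99.9765 to 99.9872) and 99.9718% in replicate 1 (from 99.9587 to 99.9807). For miR-183 the 5p arm held 96.8% in replicate 2 (96.8 to 96.9) and 92.7% in replicate 1 (92.5 to 92.8), a mean of 94.7% ± 3.0 (SD, n = 2). All 3 hairpins had at least 90% of their counts on the 5p arm in both libraries, compared with 33.5% of 260 hairpins in the tables. At least 99% on the 5p arm, as for miR-182 and miR-96, was found for 42 of the 260.

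Each 5p arm of the cluster begins with U and each 3p arm with G or C, as the printed sequences show. Among 195 hairpins with both arms in RefSeq, 48.7% of the more abundant arms and 20% of the less abundant ones began with U. The cluster shares this first base with many other guide strands. Within the cluster, miR-183 has the same first bases as miR-182, U on the 5p arm and G on the 3p arm. Whether the first base bears on how far the arms differ was not tested.

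For miR-183 the arms did not differ together between the libraries. Its 5p to 3p count ratio was 30.6 in replicate 2 and 12.6 in replicate 1, a difference of 1.28 on the log2 scale. Among the 114 hairpins with at least 100 counts on each arm in each library, no other had a larger absolute difference, and the median was 0.24. The next were miR-409 with 1.12 and miR-667 with -1.10, and these 3 were the hairpins past 1 on the log2 scale. In percentage points of the 5p share the difference for miR-183, 4.17, ranked 29th of 260 hairpins, against a median of 0.401, so the rank depends on the scale. Both arms of miR-182 and of miR-96 could not be compared in this way, because their 3p arms had under 100 counts in each library.

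**Figure D2:**
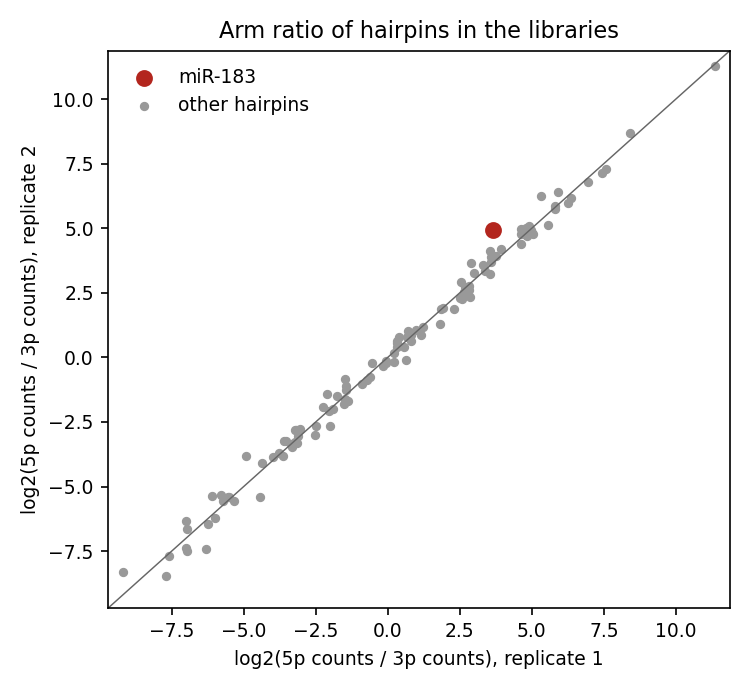
Ratio of 5p to 3p counts (log2) in replicate 2 against replicate 1 for the 114 hairpins with at least 100 counts on each arm in each library; the line marks equal ratios. miR-183 lies above the line by 1.28, the largest vertical distance plotted.

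The 5p arms were all higher in replicate 2, by unequal amounts. Relative to the library totals, miR-183-5p was 2.02-fold higher in replicate 2 than in replicate 1, miR-96-5p 1.44-fold and miR-182-5p 1.24-fold. In the order of transcription the log2 ratios were 1.01, 0.53 and 0.31. The cluster as a whole was 1.33-fold higher, with a log2 ratio of 0.42. miR-183-3p went the other way, with a log2 ratio of -0.26, at 0.832 times its share of replicate 1.

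The tables gave a background for these differences. Of 427 miRNAs that reached 100 counts in both libraries, 14.5% were at least 1.2-fold higher in replicate 2, against 3 of the 4 members that passed this filter. At least 1.5-fold higher were 2.58% of the 427 and, among the members, miR-183-5p. At least 1.2-fold lower were 16.2% of the 427 and, among the members, miR-183-3p, which lay at the threshold and did not pass it with edgeR's TMM factors (-0.26) or DESeq2's size factors (-0.23 on the log2 scale). miR-183-5p ranked 3rd among the ratios of the 427, miR-96-5p 18th, miR-182-5p 50th and miR-183-3p 361st. The log2 ratio of the 427 had a median of -0.04 and an SD of 0.30, so the ratio of miR-182-5p was close to that SD and the ratio of miR-183-5p well beyond it. Over the 677 miRNAs that reached 10 counts in both libraries, edgeR put the common biological coefficient of variation at 17.98%.

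Each miRNA's count was also set against the rest of its library in a two-sided Fisher's exact test, with p-values adjusted by the Benjamini-Hochberg method. It treats counts as independent and compares these libraries, not conditions. It called 27.1% of 1212 miRNAs with a count, and 4 of the 6 members: the 5p arms and miR-183-3p, with an exact test adjusted p of 1.01e-30 for the last. miR-182-3p and miR-96-3p were not called, with exact test adjusted p of 0.642 and 0.791, at log2 ratios of 0.21 (95% interval -0.30 to 0.72) and -0.17 (-0.88 to 0.53). At least 100 counts in each library brought calls for 67.4% of 427 miRNAs, so a call was common at this depth, and 4 of 4 members were called there.

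**Figure D3:**
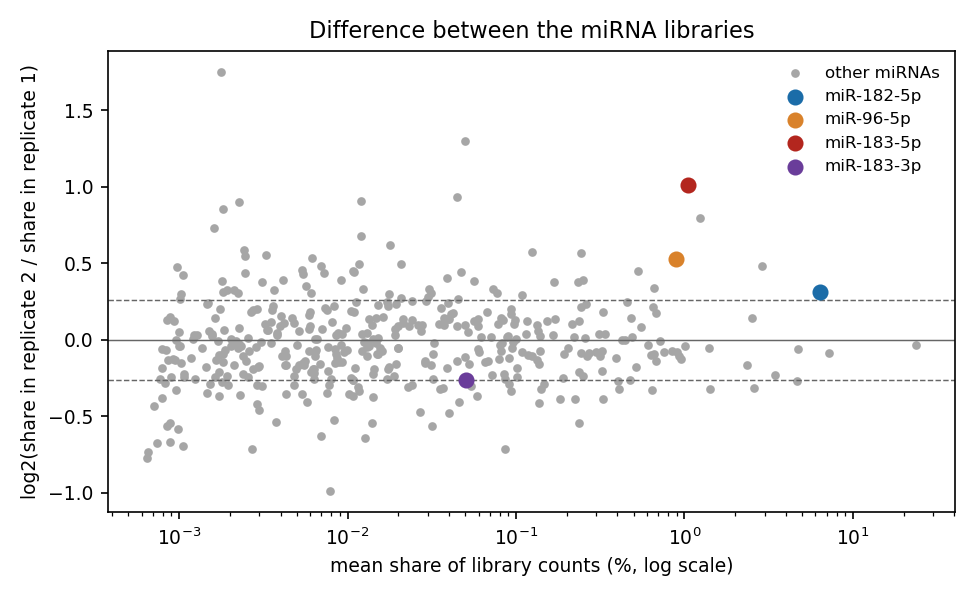
Log2 ratio of the share in replicate 2 over that in replicate 1, against the mean share (percent, log scale), for 427 miRNAs that reached 100 counts in both libraries; dashed lines mark 1.2-fold. The 5p arms of the cluster lie above the upper line, miR-183-5p highest at 1.01, and miR-183-3p lies at the lower line with -0.26.

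Among the 93 miRNAs with a mean share of at least 0.1%, 9 outside the cluster had a ratio within the range of its 5p arms, from 0.31 to 1.01 on the log2 scale. The measure of likeness here is this ratio over 2 libraries. Closest to miR-182-5p was miR-135b-5p, with a log2 ratio of 0.34, followed by miR-29b-3p and miR-101a-3p with 0.38 each and miR-363-3p with 0.39. Closest to miR-96-5p were miR-291a-3p with 0.49, miR-33-5p with 0.57, miR-339-5p with 0.57 and miR-378a-3p with 0.45. Nearest to miR-183-5p was the neuronal miRNA miR-124-3p, at 0.80, a distance of 0.21.

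The sum of the other cell type list was also higher in replicate 2, with 2.68% of replicate 2 and 1.89% of replicate 1, a log2 ratio of 0.50. The list did not differ as a unit, with 10 of its 18 miRNAs higher in replicate 2 and 8 lower. All 10 neural, liver, muscle, blood and mesenchymal miRNAs of the list were higher in replicate 2. Their sum held 2.66% of replicate 2 and 1.87% of replicate 1, a log2 ratio of 0.51. Among them, miR-223-3p had 8 counts in replicate 2 and 1 in replicate 1, miR-1a-3p 39 and 20, and miR-133a-3p 88 and 33. These lie under the 100 counts used for other ratios, and miR-9-5p was nearly equal, at 0.0904% and 0.0887%. No fold cutoff was applied, and the share of all miRNAs higher by any amount is not given here. All 8 let-7 miRNAs were lower, with 0.0154% of replicate 2 and 0.0187% of replicate 1. Here too some counts were low, with 25 in replicate 2 and 14 in replicate 1 for let-7b-5p, and 100 and 55 for let-7i-5p. Without miR-124-3p the list of 18 held 1.11% of replicate 2 and 0.992% of replicate 1, a log2 ratio of 0.16. Of the 4 stem cell miRNAs, 2 were higher and 2 lower, and their sum had a log2 ratio of 0.03. The part of other cells, and of the 1.82-fold difference in depth, in the ratios of the cluster was not tested.

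Other clusters were compared to see how evenly miRNAs of one locus differed between the libraries. Hairpins on the same strand within 10000 bases of each other were joined, placed by their mature arms where RefSeq's table held no hairpin entry, and the arm of each hairpin with the higher mean share was taken as its major arm. A hairpin was skipped where that arm comes from more than 1 locus or had under 100 counts in a library. This comparison was added after the data were seen. In 1 of 23 clusters with at least 2 major arms, or 4.35%, every major arm was at least 1.2-fold higher in replicate 2. That cluster was miR-182/miR-96/miR-183. It would not pass at 1.5-fold, because miR-182-5p was 1.24-fold and miR-96-5p 1.44-fold higher. The rule is also easier to meet with 3 arms than with 11 or 31, so the 23 clusters are not a like comparison. Mir341 to Mir370 did not meet it because of miR-1188-5p, at -0.73, with miR-341-3p at 0.44 and miR-370-3p at 1.30. The miR-1188 hairpin had 145 counts over both arms in replicate 2 and 125 in replicate 1, close to the minimum of 100 per arm. The median log2 ratio of miR-182/miR-96/miR-183, 0.53, was the highest of the 23, whose medians centred on -0.05. At the same time its members were not uniform. Its ratios spanned 0.70, the fifth widest of the 13 clusters with at least 3 major arms, where the median span was 0.40. A span tends to widen with the number of arms, and the wider ones include Mir770 to Mir136, of 11 arms, and Mir379 to Mir3072, of 31. The SD of the ratios was 0.36 for miR-182/miR-96/miR-183, against 0.26 for each of these larger clusters and a median of 0.17 over the 13.

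The miR-200b/miR-200a/miR-429 and miR-106b/miR-25 clusters, also of 3 hairpins, spanned 0.03 and 0.11. The 7 major arms from Mir290a to Mir295, in the dominant miRNA cluster of mouse embryonic stem cells, ran from -0.23 to 0.14. The lowest was miR-291a-5p, which had fewer counts than miR-291a-3p in replicate 2 and more in replicate 1, and miR-291a-3p had a log2 ratio of 0.49. Over both arms, 17 miRNAs of miR-290/miR-295 with at least 100 counts in each library spanned 1.48, against 1.28 for the 4 of miR-182/miR-96/miR-183. A span over more miRNAs tends to be wider, so these spans are not a like comparison. The 4 major arms of miR-17-92 ran from -0.08 to 0.14. The 4 spans of major arms wider than 0.70 included those from Mir341 to Mir370, with 2.04, and among 4 arms of the miR-302/miR-367 cluster, with 1.09. Over the 5 miRNAs of miR-302/miR-367 with at least 100 counts in each library, miR-302a-3p among them, the span was 1.31. With at least 1000 counts per arm in each library, 2 of 18 clusters were higher throughout, the second being Mir341 to Mir370 with miR-341-3p at 0.44 and miR-370-3p at 1.30. There miR-1188-5p, the low end of the 2.04 span, fell under the minimum and the span was 0.86.

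**Figure D4:**
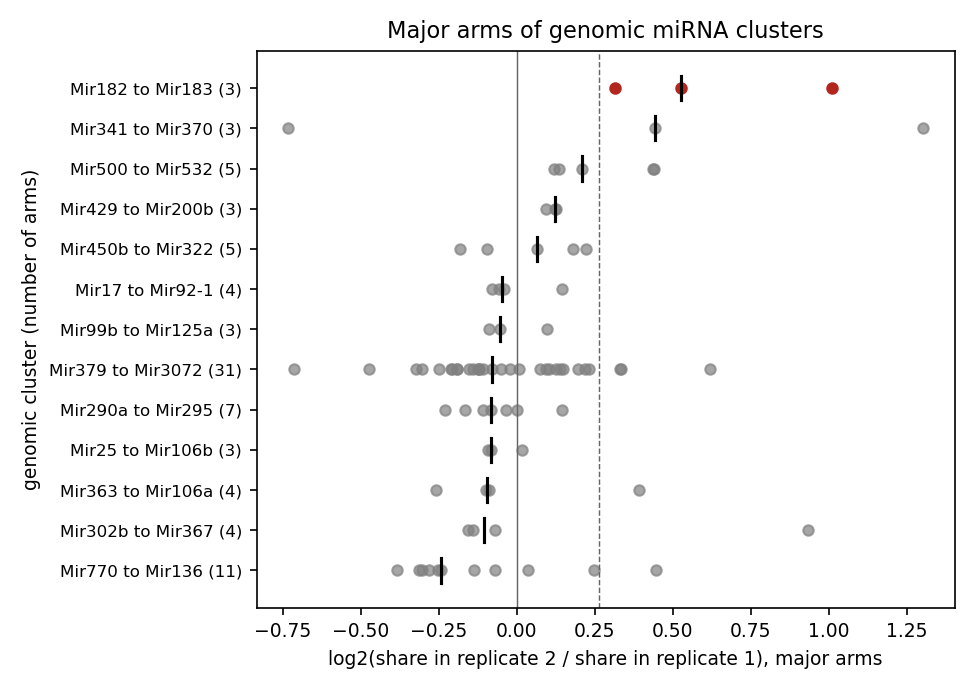
Log2 ratio of the share in replicate 2 over that in replicate 1 for the major arms of 13 genomic miRNA clusters with at least 3 such arms (number in brackets); bars mark the median and the dashed line 1.2-fold. All 3 arms from Mir182 to Mir183 lie right of the dashed line, between 0.31 and 1.01.

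Summed by seed, the arms that share bases 2 to 7, miR-182-5p and miR-96-5p, held 8.10% of replicate 2 and 6.40% of replicate 1, a mean of 7.25% ± 1.202 (SD, n = 2). miR-96-5p and miR-183-5p, which share bases 3 to 8, held 2.45% of replicate 2 and 1.43% of replicate 1, a mean of 1.94% ± 0.73. The log2 ratios of these sums were 0.34 and 0.78. Their shared direction follows from each 5p arm being higher in replicate 2, and miR-96-5p is in both sums.

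The target peaks do not name the miRNA that guided AGO2 to them. Of 29 genes listed, from general knowledge, as reported targets of at least 1 member in some tissue or species, 10 (34.5%) held a peak midpoint within their span, 15 peaks in all. Among all 21896 protein-coding genes, 8.33% held one. Genes that are not transcribed in these cells can hold no peak, and the transcript level of the listed genes was not analysed here. The list was chosen with earlier results of these data known, and longer gene spans can hold more peaks. The shares are therefore not a like comparison. No seed match was searched, because no genome sequence was used.

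Among transcription factors on the list, Foxo1, a forkhead factor downstream of insulin signalling, had 1 peak, at chr3:52294437-52294484 on mm10. Klf4, a pluripotency factor, had 2 peaks, at chr4:55527362-55527409 and chr4:55528086-55528145. Rarg, a retinoic acid receptor, also had 2, and Sox2, another pluripotency factor, and Zeb1, a repressor of epithelial genes, had 1 each. Lrp6, a WNT co-receptor, had 3 peaks between 134450904 and 134462586 on chromosome 6. Mtss1, which encodes a membrane-bending actin regulator, had 2. Ezr, which links actin to the membrane, Celsr2, an adhesion receptor gene, and Odf2, a centriole protein gene, had 1 each. The other 19 listed genes had none, among them Foxo3, Mitf, Adcy6, Irs1 and Casp2. The peak list has no value per replicate, so none of these peaks can be set against the difference between the miRNA libraries.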

How the data were processed

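Spy3-AGO2 and its RNA were captured on a SpyCatcher3 resin, per the labels' protocols, and the RNA was recovered from a gel slice, ligated to adapters with random bases and sequenced as single-end reads. The authors deposited a table of raw miRNA counts for each miRNA library and 1 list of target peaks, whose score was 0 for each of 3292 peaks. STAR 2.5.2a and Bowtie2 2.4.2, cutadapt 2.10 and UMI-tools, and the build mm10 are among the names in the submitters' processing notes, each in a role not given in the sources used here. Duplicate reads that were not collapsed would make the counting intervals too narrow.

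Counts were turned into shares of the library total, with Wilson 95% intervals and a floor of 3 counts for a count of 0. A row without a miRNA name held 0 counts in each library and was left out. Ratios between the replicates used miRNAs with at least 100 counts in each. Alternatives were edgeR 4.0.16 and DESeq2 1.42.0 scaling, other totals, other count minimums and each replicate alone. With 1 group of 2 libraries no contrast was fitted. Fisher's exact test was adjusted over all 1212 miRNAs with a count. RefSeq sequences were matched by name for 1679 of 1978 miRNAs, which held 91.9% of the counts of replicate 2 and 92.6% of replicate 1. Peaks were assigned by midpoint to RefSeq gene spans of GRCm38.p6, irrespective of strand. Coordinates are counted from 1. Python 3.11.15, scipy 1.17.1 and R 4.3.3 were used.

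The members, the target genes and the comparison clusters were chosen with earlier results of these data known. The rule for names took the 6 members, miRNAs sharing a seed with them, the neighbours of each 5p arm in mean share, up to 10 miRNAs of at least 0.1% with a ratio within the range of the 5p arms, and listed genes with a peak. miR-409, miR-667, miR-341-3p, miR-370-3p and the listed genes without a peak were named after their values were seen.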

Additional observations from a re-analysis of the deposited data

How the results depend on the processing

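The mean share of the cluster was 8.35% of all counts and lay between 7.15% and 9.54% when a replicate was left out. It was 10.9% of the total without miR-290a-5p, and 2.13% with miR-182-5p taken out of both cluster and total. The log2 ratio of the cluster, 0.42, became 0.42 with edgeR's TMM factors, 0.46 with DESeq2's size factors, 0.45 against the total without the 6 members and 0.41 without miR-290a-5p, all higher in replicate 2. It became 0.75 without miR-182-5p and 0.34 without miR-183-5p, so its size depends on which members are summed. No member's ratio changed sign under these scalings. Of miRNAs at least 1.2-fold higher in replicate 2, 62 in the main setting, 145 were found with at least 10 counts in each library and 34 with at least 1000, where fewer miRNAs were tested. The clusters with every major arm at least 1.2-fold higher numbered 2 at the 1000 count minimum and 1 under the 4 other alternatives. Among these 4, placement by hairpin entries alone gave 1 of 22 clusters. No other fold cutoff was tried for the clusters. The counts of miRNAs called by Fisher's exact test and of listed genes with a peak stayed within 1.5-fold under their alternatives. The alternatives for the cluster ratio and the genomic clusters were chosen after seeing the data. No paired analysis was possible because the miRNA libraries form a single group, and of the other libraries no values by replicate were used here. Depth limits miR-182-3p and miR-96-3p, whose intervals for the ratio include 0.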
